A study of Drosophila melanogaster with 12 samples.

Results

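Drs, Mtk, AttD, DptB, edin and PGRP-LB are inducible immune genes of Drosophila melanogaster, and each was represented on the array by 1 probe set that the platform annotation assigns to that gene alone. They were taken by name, with earlier results of these data known. They are 6 of the 11981 genes with a probe set of their own and 6 of 18769 probe sets without controls. Expression was measured on Affymetrix arrays in cells separated by DNA content: G2 cells (4C gate, which also takes in cells in mitosis) and G1 cells (2C gate) of OreR wing discs, and G2 and G1 cells of the S2 line. The discs were dissected from wandering larvae of instar 3 grown at 25 °C, and S2 is a cultured line of embryonic origin with blood cell features, used here below 30 passages. Each of the 4 groups had 3 arrays, numbered 2, 3 and 4 in the disc groups and 4, 5 and 6 in the S2 groups. All groups share sorting straight into RNA preservative and amplification from 100 ng of total RNA, and no infection or immune challenge is named in the labels. Whether replicates came from separate dissections or cultures is not stated, and the spread behind each p-value may therefore be technical.

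Antimicrobial peptides are small secreted proteins that kill bacteria and fungi. In flies they are made in large amounts by the fat body after infection, and also by blood cells and by epithelia. Their genes are switched on by NF-kappaB factors, Dif and Dorsal downstream of the Toll receptor and Relish downstream of the Imd adaptor. Drs (CG10810) encodes drosomycin, a defensin-like antifungal peptide that serves as the usual readout of Toll. Mtk (CG8175) encodes metchnikowin, a proline-rich peptide that responds to both pathways. AttD (CG7629) and DptB (CG10794) encode members of the attacin and diptericin families, which are classical Imd targets. edin (CG32185) encodes a short secreted peptide induced by infection, and PGRP-LB (CG14704) encodes an amidase that degrades peptidoglycan and thereby dampens Imd signalling.

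Values are log2 intensities, where a difference of 1 is a doubling. The medians of the 12 arrays lay between 4.18 and 4.37, and a log2 value of 5 on at least 3 arrays was the condition for a probe set to be tested. All 6 genes met it on the S2 arrays alone, and 4 of them also on the 6 disc arrays alone. edin and PGRP-LB did not, so they entered the tests through S2. Of 12 genes of the disc epithelium with a probe set of their own, all 12 averaged at least 5 in disc G2 and in disc G1, against 3 in S2 G2 and 3 in S2 G1. Of 19 haemocyte markers with a probe set of their own, 13 averaged at least 5 in S2 G2 and 13 in S2 G1. In disc G2 12 did, and in disc G1 13. Among them srp, a transcription factor gene named after its values were seen, averaged 10.70 in S2 G2 and 10.43 in S2 G1. In disc G2 srp averaged 2.98 and in disc G1 2.87. NimB4, NimC1, PPO1, atilla, gcm and lz were under 5 on every S2 array.

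**Figure D1:**
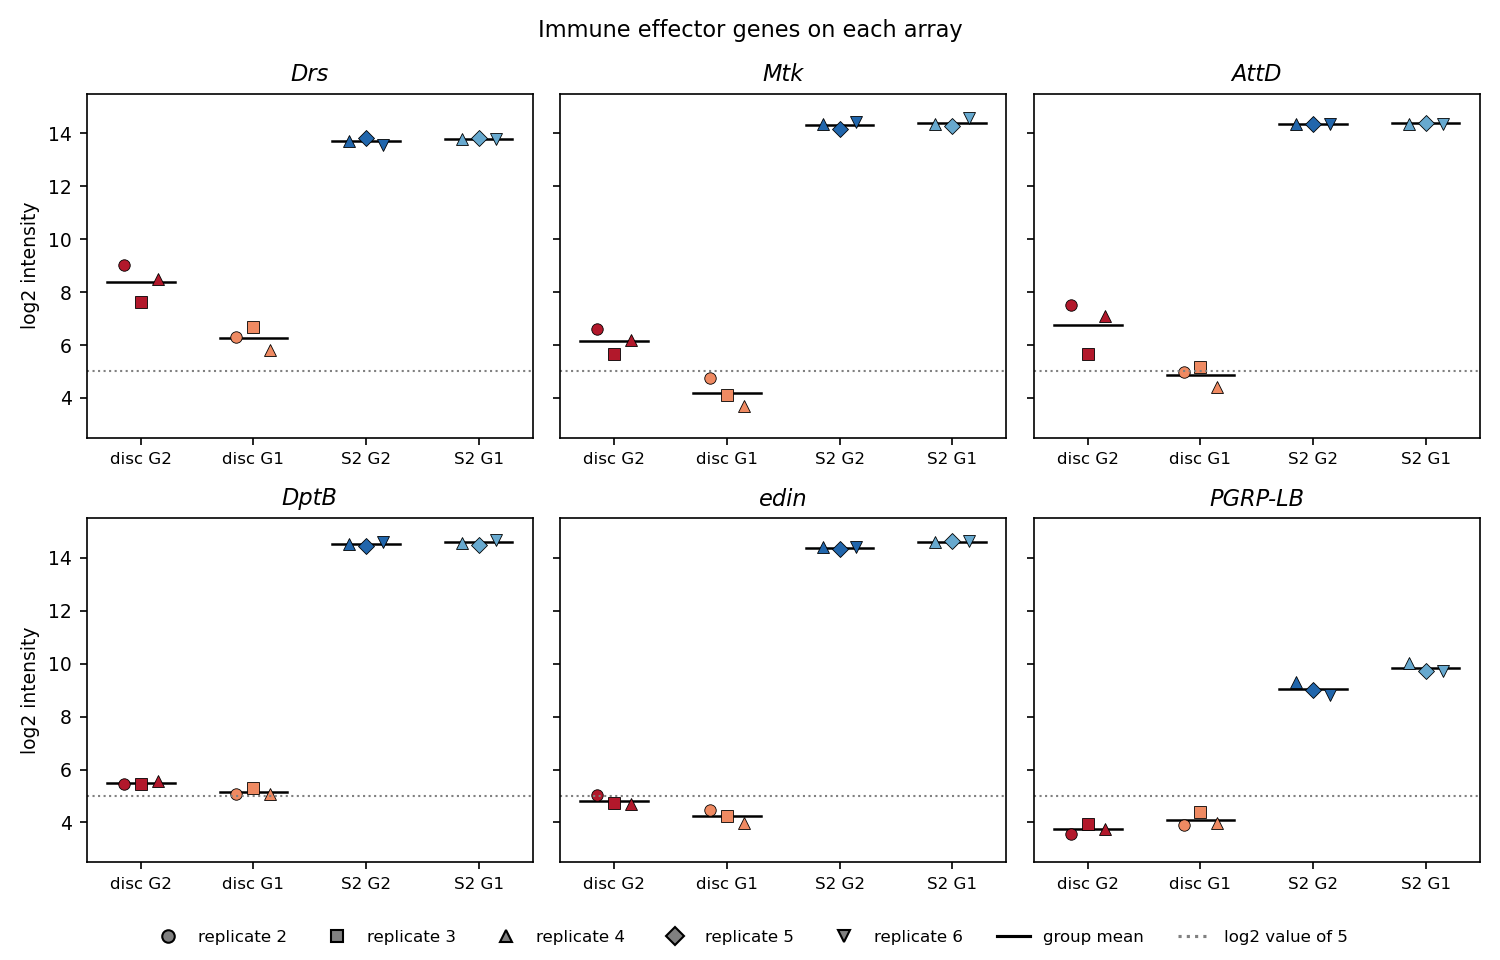
Log2 intensity (vertical axis) of each of the 6 genes on every array, by group, with 1 symbol per replicate number, bars for group means and a dotted line at 5. All S2 values lie above all disc values, and in Drs, Mtk and AttD the disc G2 arrays lie above the disc G1 arrays with replicate 3 lowest among them.

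The wing disc comparison shows which of these transcripts differ between the G2 and the G1 gate of a growing epithelium. Drs, Mtk, AttD, edin and DptB were higher in G2, the first 3 by about 3.75- to 4.27-fold, and PGRP-LB was not. In limma's fit over all 12 arrays 5 of the 6 rose and 0 fell at an adjusted p under 0.05, where 5.20% of the 8580 probe sets tested rose and 5.31% fell. The median change was 1.24 over the 6 genes and 0.05 over all probe sets tested. The same 5 genes had every G2 array above every G1 array, a pattern that 21.2% of probe sets showed. The 6 genes were chosen with earlier results of these data known, so these shares and medians describe them and test no enrichment. The gates hold different cells, and in sorted populations fewer cells that express a gene and less RNA per cell cannot be told apart.

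Drs, the antifungal peptide gene, read 9.02, 7.61 and 8.48 on disc G2 arrays 2, 3 and 4, against 6.31, 6.69 and 5.82 on the disc G1 arrays with these numbers. The G2 arrays were all higher, and array 3 was the lowest in G2 and the highest in G1. The group means were 8.37 ± 0.71 in G2 and 6.27 ± 0.44 in G1 (SD, n = 3 each). The change was 2.10 ± 0.29 (SE), a 4.27-fold rise with adjusted p = 0.00066, and it was the 4th highest of the 8580 changes.

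Mtk, whose product acts on fungi and on Gram-positive bacteria, read 6.61, 5.65 and 6.18 in disc G2, against 4.76, 4.10 and 3.71 in disc G1. It was under 5 on every G1 array and above 5 on every G2 array. Means were 6.15 ± 0.48 in G2 and 4.19 ± 0.53 in G1 (SD, n = 3 each), a change of 1.96 ± 0.26 or 3.88-fold (adjusted p = 0.00045), 6th highest of all. Because the G1 values lay close to the array medians, the size of this rise is limited, and with 16 added to each intensity before log2 it was 1.33 (adjusted p = 0.00040).

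AttD, the attacin gene, read 7.50, 5.66 and 7.11 in disc G2, against 4.96, 5.16 and 4.43 in disc G1. Array 3 stood apart in both fractions, as the lowest of G2 and the highest of G1. Means were 6.76 ± 0.97 in G2 and 4.85 ± 0.38 in G1 (SD, n = 3 each), and the change of 1.91 ± 0.36, or 3.75-fold, had adjusted p = 0.0051 and was the 7th highest. Of 26 alternative settings, 1 ended the call, namely leaving out both disc arrays of replicate 4 (1.52, adjusted p = 0.092).

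DptB and edin rose by less. DptB, the diptericin gene, read 5.46, 5.45 and 5.55 in disc G2, against 5.08, 5.31 and 5.06 in disc G1. The fractions did not overlap, and the nearest G2 and G1 arrays read 5.45 and 5.31. The change was 0.34 ± 0.09, or 1.26-fold (adjusted p = 0.035), and the call was lost under 11 of 26 settings, with adjusted p up to 0.31 without both arrays of replicate 4. edin read 5.04, 4.72 and 4.68 in disc G2, against 4.48, 4.26 and 3.97 in disc G1. Every value but 1 lay under 5, near the array medians. Its change of 0.58 ± 0.13 (adjusted p = 0.013) lost its call under 4 of 26 settings, with adjusted p up to 0.064 when only the 6 disc arrays were fitted.

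PGRP-LB, the negative regulator, read 3.56, 3.93 and 3.74 in disc G2, against 3.91, 4.40 and 3.96 in disc G1. All 6 values lay under 5, and the fractions overlapped. The change was -0.35 ± 0.16 (95% confidence interval -0.70 to 0.01, adjusted p = 0.21). With replicate number as a block the same change had adjusted p = 0.023, in a fit that called 7.45% of probe sets lower. A difference between values this far under 5 says little about transcript amount.

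**Figure D2:**
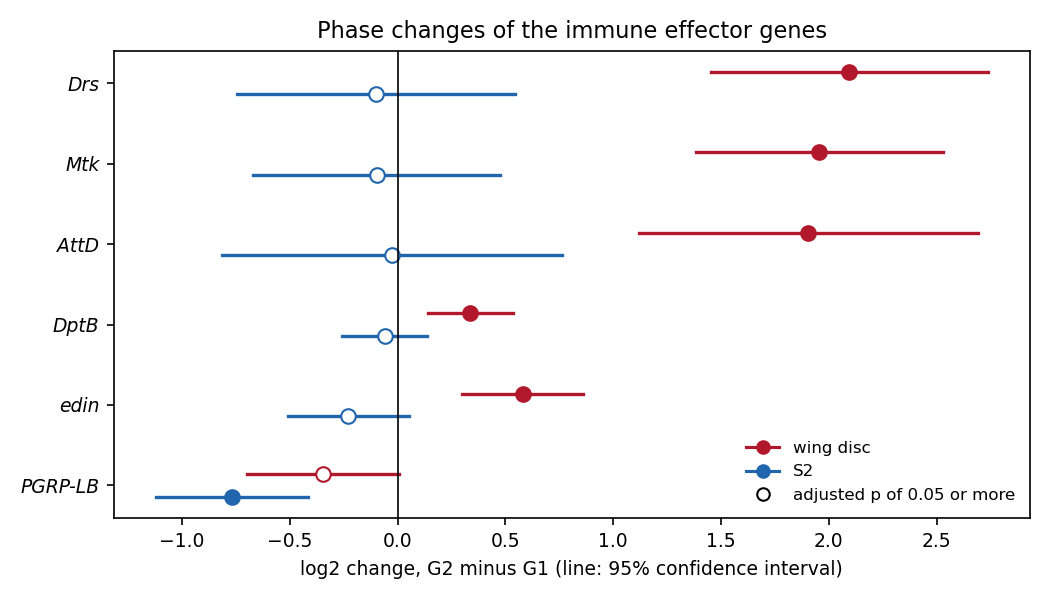
Log2 change from the fit (horizontal axis, G2 minus G1) of each gene in wing disc and S2, with 95% confidence intervals and filled points where adjusted p was under 0.05. Drs, Mtk and AttD had disc changes of 1.91 to 2.10, while PGRP-LB had the only S2 change that passed, at -0.77.

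Same-numbered G2 and G1 arrays deviated together across the table, so the difference within each pair is also given. For Drs it was 2.71, 0.92 and 2.66 in disc pairs 2, 3 and 4. For AttD it was 2.54, 0.50 and 2.68. Pair 3 thus gave the smallest difference in both genes. Mtk was more even, with 1.85, 1.55 and 2.47. DptB (0.38, 0.15 and 0.49) and edin (0.56, 0.46 and 0.72) had their smallest difference in pair 3 as well. All 15 pair differences of the 5 genes were positive, and the 3 of PGRP-LB were negative. Without both arrays of replicate 3 the disc change was 2.68 ± 0.20 for Drs, 2.16 ± 0.29 for Mtk and 2.61 ± 0.17 for AttD (adjusted p = 7.1e-05, 0.0014 and 4.4e-05). In the same fit DptB kept its call (0.43 ± 0.10, adjusted p = 0.037) and edin lost it (0.64 ± 0.17, adjusted p = 0.053). Leaving out this pair was a choice made after the data were seen.

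**Figure D3:**
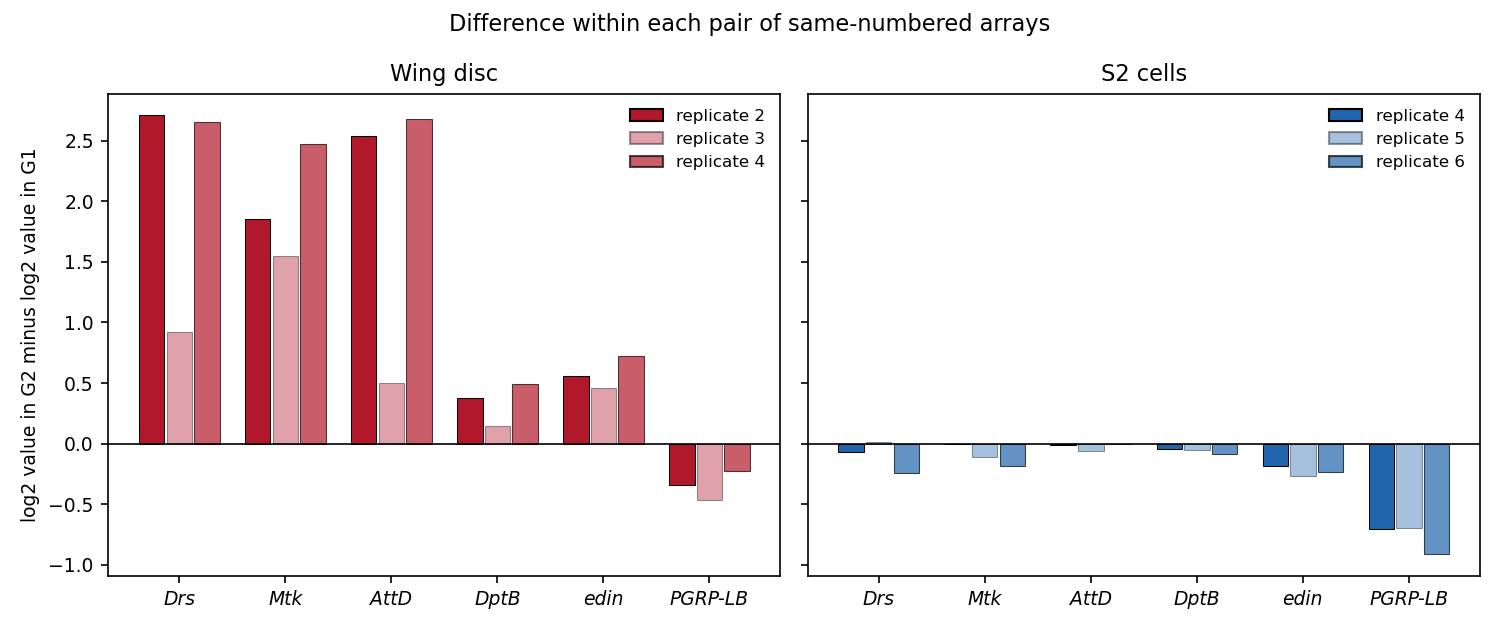
Log2 value in G2 minus log2 value in G1 (vertical axis) within each pair of same-numbered arrays, with wing disc on the left, S2 cells on the right and 1 bar per pair. In wing disc the bars of replicate 3 are the lowest for Drs, Mtk, AttD, DptB and edin, and in S2 only PGRP-LB has bars beyond -0.5.

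In S2 cells the same comparison gave 1 gene that fell, PGRP-LB, and 0 that rose, where 3.52% of probe sets fell and 6.13% rose. Normalization by cyclic loess changed the balance of S2 calls over all probe sets to 389 higher and 422 lower, against 526 higher and 302 lower as deposited. PGRP-LB, the peptidoglycan amidase gene, read 9.31, 9.02 and 8.83 on S2 G2 arrays 4, 5 and 6, against 10.01, 9.71 and 9.74 in S2 G1. No G2 array reached the lowest G1 array. Means were 9.05 ± 0.24 in G2 and 9.82 ± 0.16 in G1 (SD, n = 3 each), and the change was -0.77 ± 0.16 (adjusted p = 0.012), a 1.70-fold difference. The within-pair differences were -0.70, -0.69 and -0.91. The call was lost, with values of -0.67 and -0.66, without S2 G1 array 4 (adjusted p = 0.0522) or S2 G2 array 6 (adjusted p = 0.0518).

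The 5 peptide genes stood near the top of the scale in S2. Array maxima were 14.90 to 14.94 in S2 G2 and 14.89 to 14.95 in S2 G1, and these genes read 13.54 to 14.59 in G2 and 13.78 to 14.67 in G1. Array signal saturates towards its maximum, so the sizes of S2 changes of these 5 genes are limited. PGRP-LB lay well below it. edin read 14.40, 14.35 and 14.39 in S2 G2, against 14.58, 14.61 and 14.62 in S2 G1. The fractions did not overlap, and the change was -0.23 ± 0.13 (adjusted p = 0.32, or 0.073 with replicate number as a block). AttD read 14.34, 14.33 and 14.34 in S2 G2, against 14.36, 14.40 and 14.35 in S2 G1, which is lower without overlap but only by 0.03. Together with PGRP-LB, 3 of the 6 genes had every G2 array below every G1 array, which 10.7% of probe sets showed.

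Drs read 13.71, 13.82 and 13.54 in S2 G2, against 13.78, 13.81 and 13.78 in S2 G1, and the fractions overlapped. Mtk read 14.34, 14.18 and 14.41 in S2 G2, against 14.33, 14.28 and 14.59 in S2 G1. DptB read 14.51, 14.44 and 14.59 in S2 G2, against 14.56, 14.49 and 14.67 in S2 G1. All 3 genes overlapped between fractions. Their changes were -0.10 (95% confidence interval -0.74 to 0.54) for Drs, -0.10 (-0.67 to 0.47) for Mtk and -0.06 (-0.26 to 0.14) for DptB, and that of AttD was -0.03 (-0.81 to 0.76). These intervals use a spread shared with the disc arrays, which were clearly more variable for Drs, Mtk and AttD. Fitted on the 6 S2 arrays alone, the intervals were -0.34 to 0.14 for Drs, -0.37 to 0.18 for Mtk, -0.29 to 0.17 for DptB and -0.22 to 0.17 for AttD. Only that of DptB was wider than in the shared fit.

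The test of the disc change against the S2 change asked whether the phase difference itself differed between the cell types. It passed for Drs (2.20 ± 0.42, adjusted p = 0.011), Mtk (2.05 ± 0.37, adjusted p = 0.0081) and edin (0.81 ± 0.18, adjusted p = 0.026), so 3 of the 6 genes were called higher, where 2.21% of probe sets were. The values of AttD (1.93 ± 0.51, adjusted p = 0.052), DptB (0.40 ± 0.13, adjusted p = 0.11) and PGRP-LB (0.42 ± 0.23, adjusted p = 0.37) did not pass. With 16 added to each intensity the value of Mtk was 1.43 (adjusted p = 0.0066). AttD passed under 7 of 25 settings, among them without disc G2 array 3 (2.48, adjusted p = 0.00095). edin lost its call under 7 of 25 and Drs under 1, without both disc arrays of replicate 4 (1.91, adjusted p = 0.071). S2 values near the maximum limit what this difference can say for the 5 peptide genes.

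The comparison of disc with S2 set the levels in both cell types side by side. Every S2 array lay above every disc array for all 6 genes, by 4.43 (PGRP-LB) to 9.30 (edin) between the nearest arrays. The 4 genes that also reached the filter on the disc arrays were Drs, Mtk, AttD and DptB. Within G2 all 4 were called lower in disc, where 40.1% of probe sets were. Within G1, where 39% were, Drs, AttD and DptB were called lower too. Mtk was under 5 on every disc G1 array, so its difference within G1 is a description. AttD was under 5 on 2 of the 3 disc G1 arrays. Subtracting array medians shifted every gene by -0.10 within G1 and -0.12 within G2. Drs had the smallest gap of the peptide genes. Its disc minus S2 difference was -5.32 ± 0.29 within G2 and -7.52 ± 0.29 within G1. That of Mtk was -8.16 ± 0.26 within G2 and -10.21 ± 0.26 within G1, and that of AttD was -7.58 ± 0.36 and -9.52 ± 0.36. DptB differed by -9.03 ± 0.09 within G2 and -9.43 ± 0.09 within G1. For edin (-9.56 within G2, -10.37 within G1) and PGRP-LB (-5.31 and -5.73) the disc side was under 5 on 5 of 6 and 6 of 6 arrays and the S2 side alone let them into the test, so these differences are a description. S2 values near the array maximum limit the sizes for the 5 peptide genes, and so do the disc G1 values of Mtk, all under 5. With 16 added to each intensity before log2, the difference within G1 was -9.29 for Mtk and -8.87 for AttD.

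The order of the group means was S2 G1, S2 G2, disc G2 and disc G1 from high to low for the 5 peptide genes. The neighbours S2 G1 and S2 G2 did not pass as different for any of these 5. For PGRP-LB the order was S2 G1, S2 G2, disc G1 and disc G2, and the neighbouring disc fractions did not pass as different in the fit without a block. The SD over replicates in disc G2 was 0.97 for AttD, 0.71 for Drs and 0.48 for Mtk, against 0.38, 0.44 and 0.53 in disc G1. In S2 G2 it was 0.01, 0.14 and 0.12 for these genes, and in S2 G1 0.02, 0.01 and 0.16.

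Over 7 lists of other immune, stress and melanisation genes, 83 genes were tested. In disc 4 of them rose (4.82%, against 5.20% of all probe sets) and 1 fell, where 5.31% of all probe sets did. The share that rose was near that of all probe sets. In S2 2 rose (2.41%, against 6.13%) and 2 fell (2.41%, against 3.52%). With replicate number as a block, 13 rose in disc (15.7%, against 11.5% of all probe sets) and 1 fell (7.45% of all probe sets did), and 3 rose and 9 fell in S2 (3.61% and 10.8%, against 10.9% and 7.44%).

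Of 24 other antimicrobial and immune-induced peptide genes with a probe set of their own, 8 were tested and limma called 0 in disc and 0 in S2, with median changes of 0.02 and -0.20. At an unadjusted p under 0.05 there were 0 in disc and 2 in S2, both lower in G2, where 2131 and 2058 of all 8580 probe sets passed. With the block 1 of the 8, CecB, passed in each cell type. In disc G2, 19 of the 24 averaged under 5. CecB, a cecropin, read 5.99, 5.46 and 6.22 in disc G2, against 5.17, 4.83 and 5.66 in disc G1. The fractions overlapped, but G2 was higher within each pair (0.82, 0.63 and 0.56). The change of 0.67 ± 0.49 had adjusted p = 0.45 without the block and 0.0059 with it. In S2, CecB read 11.84, 10.56 and 9.77 in G2, against 12.52, 11.35 and 10.98 in G1, and G2 was lower within each pair (-0.68, -0.79 and -1.21). That change of -0.89 ± 0.49 had adjusted p = 0.31 without the block and 0.0028 with it. The disc change of CecB minus its S2 change was 1.56 (adjusted p = 0.26 without the block and 0.0018 with it). Def, the insect defensin gene, averaged 6.05 in disc G2 and 5.95 in disc G1, against 5.27 in S2 G2 and 5.44 in S2 G1. Drsl4, a paralogue of Drs, had a disc change of -0.09 ± 0.12 (adjusted p = 0.72), and the remaining named list entries, Acp95EF and LysS, had -0.01 and 0.21. Acp95EF is by its name an accessory gland peptide gene, so its place on this list is uncertain. It is 1 of the 8 tested and the brightest of them in disc (9.24 in G2 and 9.25 in G1).

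Among 7 tested genes that recognise peptidoglycan or glucan, 1 rose in disc G2 and 1 fell in S2 G2, with medians of 0.23 and -0.25. Over all probe sets, 5.20% rose in disc G2 and 3.52% fell in S2 G2. GNBP3, a sensor of fungal glucan upstream of Toll, averaged 11.72 ± 0.01 in disc G2 and 11.25 ± 0.08 in disc G1, a rise of 0.48 ± 0.10 (adjusted p = 0.0086). PGRP-SC2, like PGRP-LB an amidase, averaged 10.24 ± 0.13 in S2 G2 and 11.00 ± 0.10 in S2 G1. It fell by 0.75 ± 0.16 (adjusted p = 0.014), beside the change of -0.77 in PGRP-LB. The S2 changes of PGRP-LA (-0.56), PGRP-SB1 (-0.63) and PGRP-LF (-0.25) did not pass, and neither did the disc changes of PGRP-LF (0.42), PGRP-SB1 (-0.44) and GNBP2 (0.20). With the block, PGRP-LF and PGRP-LE (0.29) passed in disc as well, with adjusted p = 0.041 and 0.028, and PGRP-SB1 in S2 (adjusted p = 0.048).

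All 19 tested Imd pathway genes averaged at least 5 in both disc fractions, against 18 in each S2 fraction. In disc G2, where 5.31% of all probe sets fell and 5.20% rose, 0 of them fell and 1 rose (median 0.18). This was Fadd, the adaptor that links imd to the caspase Dredd, with 6.74 ± 0.08 in disc G2 and 6.13 ± 0.20 in disc G1, a rise of 0.61 ± 0.12 (adjusted p = 0.0081). Rel, which encodes the Relish factor, had a disc change of 0.26 ± 0.12 (adjusted p = 0.19), imd one of 0.34 ± 0.15 (adjusted p = 0.20) and pirk, a feedback inhibitor, one of 0.25 ± 0.21 (adjusted p = 0.52). CYLD (0.41), Charon (0.28) and IKKbeta (0.27) did not pass in disc either. With the block imd (adjusted p = 0.049) and Charon (adjusted p = 0.030) passed in disc, and CYLD (0.44, adjusted p = 0.046) in S2. In S2 G2 Charon rose by 0.40 ± 0.09 (adjusted p = 0.019) and 0 Imd genes fell (median 0.03), where 6.13% of all probe sets rose and 3.52% fell. Of 17 tested Toll pathway genes limma called 0 in disc (median 0.12) and 0 in S2 (median -0.04), against 3 higher and 1 lower in disc and 2 higher and 2 lower in S2 at an unadjusted p under 0.05. grass, a serine protease upstream of Toll, had 0.53 ± 0.18 in disc (adjusted p = 0.081) and -0.60 ± 0.18 in S2 (adjusted p = 0.055). With the block grass passed in disc (adjusted p = 0.024) and in S2 (adjusted p = 0.017), and so did Tollo in S2 (-0.43, adjusted p = 0.048). dl, which encodes Dorsal, had 0.32 in disc and 0.35 in S2, and neither passed.

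Of the 32 tested stress, wound and melanisation genes, 2 rose in disc (6.25%, against 5.20% of all probe sets) and 1 fell (3.12%, against 5.31%). In S2 1 rose (3.12%, against 6.13%) and 1 fell (3.12%, against 3.52%). With the block 5 rose in disc (15.6%, against 11.5%) and 1 fell (3.12%, against 7.45%). In S2 the block gave 1 higher (3.12%, against 10.9%) and 4 lower (12.5%, against 7.44%). Of 6 tested JAK-STAT and Tot genes limma called 0 in disc (median 0.00) and 0 in S2 (median 0.01), against 1 higher in disc and 2 lower in S2 at an unadjusted p under 0.05. Of 13 tested genes of JNK signalling and wound response, grnd, a receptor for Eiger, rose in disc G2 by 0.53 ± 0.13 (adjusted p = 0.026) and egr, the TNF ligand gene, fell by 1.19 ± 0.27 (adjusted p = 0.015), with a list median of 0.05. In S2 G2, bsk, the JNK gene, rose by 0.40 ± 0.09 (adjusted p = 0.014) and 0 of the 13 fell. With the block Ddc fell in S2 G2 (-0.43, adjusted p = 0.026). Of 13 tested thioester protein and melanisation genes, Spn77Ba, a serpin that restrains melanisation, rose in disc G2 (0.59 ± 0.08, adjusted p = 0.00043) and fell in S2 G2 (-0.54 ± 0.08, adjusted p = 0.0020), and 0 others passed. The medians of that list were 0.30 and -0.12. With the block Sp7 (0.58), Spn27A (0.24) and Spn28Dc (0.45) also passed in disc, and Spn28Dc (-0.41) and Tep4 (-0.48) in S2.

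**Figure D4:**
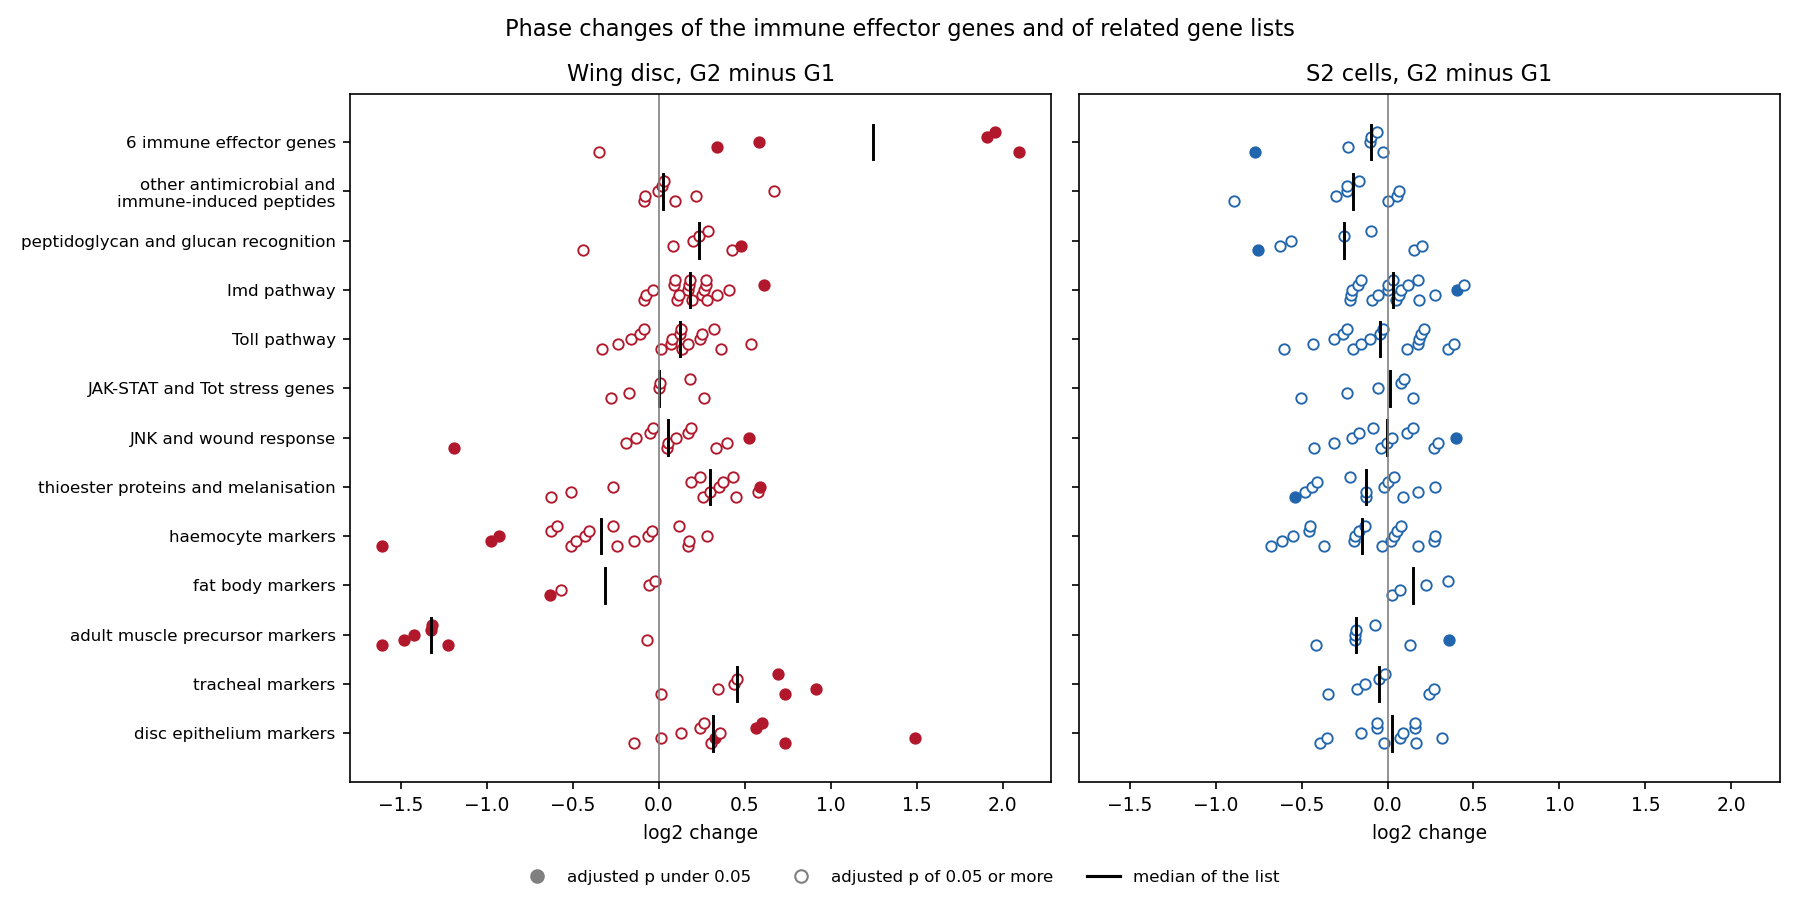
Log2 change (horizontal axis) of every tested gene of each list in wing disc and in S2, with filled points where adjusted p was under 0.05 and a bar at each list's median. In wing disc the 6 immune effector genes have a median of 1.24, against 0.02 for the other peptide genes and -1.32 for adult muscle precursor markers. These genes and lists were chosen with earlier results of these data known.

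Haemocyte and muscle precursor markers that passed were lower in disc G2, and so was the 1 fat body marker that passed. Tracheal and epithelial markers that passed were higher. Of 18 tested haemocyte markers 3 fell in disc G2 and 0 rose (He, NimB4 and zfh1, median -0.34), where 5.31% of all probe sets fell and 5.20% rose. zfh1 is also on the muscle precursor list, and with the block Pxn (-0.59) and gcm (-0.41) fell too, where 7.45% of all probe sets fell. The summed intensity of all 19 haemocyte markers was 1340.5 to 1682 in G2 and 1554 to 2176 in G1. The defining haemocyte gene srp was under 5 on every disc array, and so were eater and lz, while 12 of the 19 averaged at least 5 in disc G2 and 13 in disc G1, among them drpr, ush and crq. Of 4 tested fat body markers 1 fell (FASN1, -0.63 ± 0.16) and 0 rose (median -0.31; 2 fell with the block), with summed intensities of 1966 to 2240.1 over all 13 in G2 and 2169 to 2365 in G1. The larval fat body genes Lsp2, Fbp1 and Fbp2 were under 5 on every disc array and were not tested. FASN1 averaged 7.80 in disc G2 and 8.44 in disc G1, against 11.72 in S2 G2 and 11.37 in S2 G1. The 4 tested genes therefore say little about fat body cells. Of 7 tested adult muscle precursor markers 6 fell and 0 rose (median -1.32, sums of 7861 to 10913 in G2 and 13657 to 16856 in G1). Of 7 tested tracheal markers 3 rose (verm, uif and vvl, median 0.45, sums of 6026 to 6736 in G2 and 3910.4 to 5417 in G1), and of 12 disc epithelium markers 5 rose (Dll, ap, caup, eyg and fj, median 0.31, sums of 7179 to 7602 in G2 and 5789 to 6629.5 in G1). The part of these shifts in the rise of the peptide genes was not tested.

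In S2, limma called 0 of 18 haemocyte markers between the fractions (median -0.15, with 3 lower in G2 at an unadjusted p under 0.05 and 3, He, NimC4 and atilla, lower with the block), with sums of 9333 to 10844 in G2 and 10534 to 12075 in G1. The S2 medians of the fat body (0.15), muscle precursor (-0.19), tracheal (-0.05) and disc epithelium (0.03) lists came with 1 call in all, a rise of Ama by 0.36 ± 0.08 (adjusted p = 0.015). With the block 1 disc epithelium marker rose in S2 G2 and 2 fell, where 10.9% of all probe sets rose and 7.44% fell.

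For each of the 6 genes, the 3 genes most alike over the 12 arrays were found among 6936 others, by the root mean square difference of log2 values after each gene was centred on its own mean. Mtk and AttD were each other's closest gene (0.43), and DptB was the closest gene to edin (0.41). After AttD, Mtk was closest to DptB (0.65) and edin (0.66). The closest genes to Drs were yin (0.55), Arpc3B (0.66) and PGRP-LF (0.68). Of these, yin averaged 6.17 in disc G2 and 4.79 in disc G1, against 12.51 in S2 G2 and 12.42 in S2 G1. blanks was the closest to DptB (0.23), followed by edin (0.41) and CG6231 (0.46), and it came second for edin (0.55), before Mtk (0.66). For AttD, CG6231 (0.70) and DptB (0.77) followed Mtk. PGRP-LB was most like arg (0.19), teq (0.23) and GstE2 (0.25). Since the step between S2 and disc dominates all of these profiles, this likeness mostly describes genes with a step of similar size.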

How the data were processed

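The authors deposited probe set intensity values on a linear scale, made with RMA in R 2.15.2 per the submitters' processing notes (options not given in the sources used). Of 18952 probe sets, 183 controls were left out and log2 was taken. Genes were named from the platform annotation of 2016 (13646 probe sets with 1 gene, 402 with several, 4721 with none listed); 13543 of the 13646 matched the current gene table. Probe sets with log2 values of at least 5 on at least 3 of 12 arrays were tested (8580). limma 3.58.1 in R 4.3.3 (lmFit, eBayes) fitted 1 coefficient per group to all 12 arrays, with two-sided p-values adjusted by Benjamini and Hochberg over the 8580; under 0.05 passed. The script was tested on simulated data. Arrays give no counts, so the number of arrays limits the precision; 40.4% to 42.0% of probe sets reached 5 on an array. For gene lists, each gene's brightest probe set was used. Named genes were the 6 members and, per list, up to 3 with the smallest p in each phase comparison and the 2 brightest; Def, Rel, imd, pirk, srp and the members of lists that were called or defining were added after their values were seen. Members and lists were chosen with earlier results of these data known. Deviations from group means correlated at 0.31 to 0.52 in the 6 same-numbered pairs and at -0.50 to 0.01 in 12 others, so the numbers pair the samples. List genes named for a call made with the block were also added after their values were seen. Tables and plots used Python 3.11.15, pandas 2.3.3, numpy 2.4.6 and matplotlib 3.10.9. No sequence or coordinate was used.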

Additional observations from a re-analysis of the deposited data

Results flagged for a closer look

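The G2 minus G1 change differed between wing disc and S2 by limma's test of the difference for 3 of the 6 genes. The disc change minus the S2 change was 2.20 for Drs (2.10 in disc, -0.10 in S2), 2.05 for Mtk (1.96 in disc, -0.10 in S2) and 0.81 for edin (0.58 in disc, -0.23 in S2). All 3 genes lay near the array maxima in S2, and edin was under 5 on 5 of 6 disc arrays. The part of the scale's ends in these differences was not tested.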

How the results depend on the processing

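Across the alternatives, 720 of the values for single members kept their direction and side of the threshold, 26 lost the call, 9 gained it and 1 changed sign. The disc minus S2 differences of Drs, AttD and DptB, and that of Mtk within G2, kept their call in all 26 alternatives. Those of edin and PGRP-LB, and that of Mtk within G1, are a description, and their calls lend no support. All of these differences are large and swell the first number. The disc changes of DptB, edin and AttD lost their call in 11, 4 and 1 of 26 alternatives. The disc changes of Drs (1.77 to 2.68, highest adjusted p = 0.017) and Mtk (1.33 to 2.24, highest adjusted p = 0.013) kept their call in all 26 alternatives. The S2 change of AttD was 0.019 after array medians were subtracted, against -0.03, and neither passed. With replicate number as a block, since the numbers pair the samples, the calls were 1626 in disc (902 without it), 1577 in S2 (828 without) and 949 for the difference of changes (438 without). The block made 1 member, PGRP-LB, lower in disc and changed no other call of a member in the 2 phase comparisons. In limma's fit with the block, the disc changes had adjusted p = 0.0036 (Drs), 0.00018 (Mtk), 0.011 (AttD), 0.026 (DptB) and 0.0018 (edin). For the difference of changes, Drs (adjusted p = 0.020), Mtk (0.0021) and edin (0.0040) passed with it. AttD (0.054), DptB (0.068) and PGRP-LB (0.054) did not. It also made calls in the lists of other genes, CecB in both cell types among them. Array weights gave 2043 calls in disc, 1645 in S2 and 1151 for the difference of changes. In the last, 515 of 8580 probe sets were higher, against 190 without weights, and 5 members in place of 3. Fits of the compared groups alone gave 413 calls in S2 and 914 in disc. Of these disc calls 470 were higher, with 3 members higher in place of 5. Leaving out 1 array in turn gave 601 to 1152 calls in disc, 235 to 618 of them higher, with 3 to 5 members higher. In S2 it gave 493 to 1088 calls, 182 to 374 of them lower, with 0 to 1 members lower. For the difference of changes it gave 281 to 586 calls. Leaving out both disc arrays of 1 replicate, a choice made after seeing the data, gave 451, 584 and 387 calls in disc without replicate 2, 3 and 4, and 188 and 170 for the difference of changes without replicate 2 and 4. Without replicate 4, 132 probe sets were higher in disc, 2 members among them, and 61 in the difference of changes, 1 member among them. Fewer arrays were fitted in these settings; for the others the cause was not tested. Values under 5 in disc and near the maximum in S2 limit the sizes of change.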
